A study of Homo sapiens with 4 samples.

Results

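Cholesterol synthesis and its regulation were followed through 30 genes in Panc1, an established line of human pancreatic cancer. They encode enzymes that build cholesterol from acetyl-CoA, proteins that sense or carry sterols, and regulators of those enzymes. The genes were chosen by symbol, with earlier results of these data known. Each needed a probe set that the array annotation assigns to that gene alone. Such a probe set was found for 27 of the 30, among 19775 genes in all, and 60 probe sets covered these 27. FDFT1, CYP51A1 and NR1H2 had none under this rule and were not analysed here. Expression was measured on 4 Affymetrix arrays, 1 per condition: romidepsin, tamoxifen, romidepsin plus tamoxifen, and untreated cells. All 4 came from the same cell line, and treatments lasted 24 hours. Romidepsin is an inhibitor of histone deacetylases, and tamoxifen a drug that binds estrogen receptors and blocks or activates them depending on the tissue. The labels state no doses and no vehicle for untreated cells.

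Cells make cholesterol in stages. Acetyl-CoA is turned into mevalonate and then into isoprenoid units, which are joined to squalene, closed to the ring compound lanosterol, and trimmed to cholesterol. When membranes of the endoplasmic reticulum hold little sterol, the escort protein SCAP carries the transcription factor SREBP2, encoded by SREBF2, to the Golgi, where its active part is released and switches on most of these genes. INSIG1 and INSIG2 hold SCAP back when sterol is plentiful. The nuclear receptors LXR-alpha (NR1H3) and LXR-beta (NR1H2) respond to oxidised sterols and switch on genes of sterol export. Tamoxifen is also known to bind a microsomal complex of the sterol enzymes EBP and DHCR7.

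Values are MAS5 signals, the linear brightness of a probe set. The floor for dim signals was 66.4, the median over non-control probe sets on all arrays, and lower values were raised to it before ratios were formed. Rises and falls are differences of 2-fold or more between a pair of arrays. With 1 array per condition there was no test and no p-value, and a fold describes 2 arrays. Precision is limited by having 1 array per condition. All 27 genes lay above the floor on all 4 arrays. The spread that can be seen is technical: the folds of a gene's further probe sets above the floor on all arrays differed from those of the one used by a median of 0.18 to 0.27 on the log2 scale over the 5 comparisons. These are bulk samples, so a change in the share of cells that express a gene and a change in RNA per cell cannot be told apart.

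The arrays differed in ways that bear on small folds. Hybridization spike-in controls, which hold no RNA of the cells, stood at 1.01 times the untreated level with romidepsin, 0.781 times with tamoxifen and 0.819 times with both drugs. Scaling to them moved the median log2 fold of all genes by -0.02 for romidepsin, 0.32 for tamoxifen and 0.25 for both drugs over untreated cells, and centring the arrays on their medians moved it by -0.17, -0.14 and -0.26. The 3′ to 5′ ratio of the actin control was 1.18 with romidepsin, 1.39 with tamoxifen, 1.73 with both drugs and 1.21 in untreated cells. Their part in the results was not tested. Of 7 markers of duct-type epithelium, 5 were above the floor on all arrays, among them the keratins KRT8 and KRT18, whereas KRT19 was below it on all 4. Of markers of other cell types, the 3 leukocyte markers with a probe set and both hepatocyte markers were below the floor on all arrays. Of 4 fibroblast markers, COL1A1 was bright, at 9773 with romidepsin, 9163 with tamoxifen and 6365 with both drugs, against 9282 in untreated cells, DCN was just above the floor on all arrays, at 67.1 to 91.6, and COL3A1 and LUM were below it on all. Of 2 endothelial markers, PECAM1 stood at 110.0 to 136 and CDH5 was below the floor on all arrays. Of 2 acinar markers with a probe set, CELA3A was above the floor on 3 arrays, with a highest signal of 132, and CPA1 on 0. The part of other cell types in the results was not tested.

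The bases before the start of 6 of these genes are shown because the genes follow the different patterns described below. HMGCS1, IDI1 and STARD4 rose with either drug, INSIG1 rose more with romidepsin than with tamoxifen, TMEM97 was highest with tamoxifen, and MYLIP rose on both arrays with romidepsin and not with tamoxifen alone. Sequences are those of RefSeq on GRCh38.p14, the 250 bases before an annotated start, 5′ to 3′ on the strand of the gene. Capitals mark CCAAT or its reverse complement ATTGG, the core bound by NF-Y, a factor known to work with SREBP2, and CACNCCAC or its reverse complement, a relaxed core of the sterol regulatory element that SREBP2 binds. HMGCS1 and IDI1 have several annotated starts, and the stretch with the most matches among those that hold no other start of the gene was taken, so their number of matches was chosen.

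HMGCS1, chr5:43313413-43313662, minus strand: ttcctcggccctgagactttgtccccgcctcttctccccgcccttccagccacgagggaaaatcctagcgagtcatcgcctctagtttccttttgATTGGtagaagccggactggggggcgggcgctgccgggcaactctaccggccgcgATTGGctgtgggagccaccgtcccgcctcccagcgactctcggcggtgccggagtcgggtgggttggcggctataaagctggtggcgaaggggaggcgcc
IDI1, chr10:1049120-1049369, minus strand: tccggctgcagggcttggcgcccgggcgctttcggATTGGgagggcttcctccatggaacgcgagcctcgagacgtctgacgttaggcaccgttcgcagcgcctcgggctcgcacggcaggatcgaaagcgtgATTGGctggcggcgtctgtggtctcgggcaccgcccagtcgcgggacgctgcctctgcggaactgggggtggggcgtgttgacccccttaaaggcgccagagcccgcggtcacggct
STARD4, chr5:111512536-111512785, minus strand: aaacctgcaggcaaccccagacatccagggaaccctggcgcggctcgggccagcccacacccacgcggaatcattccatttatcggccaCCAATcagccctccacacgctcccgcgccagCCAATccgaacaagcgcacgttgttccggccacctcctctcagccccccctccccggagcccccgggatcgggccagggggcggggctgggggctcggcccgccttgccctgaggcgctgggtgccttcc
INSIG1, chr7:155297628-155297877, plus strand: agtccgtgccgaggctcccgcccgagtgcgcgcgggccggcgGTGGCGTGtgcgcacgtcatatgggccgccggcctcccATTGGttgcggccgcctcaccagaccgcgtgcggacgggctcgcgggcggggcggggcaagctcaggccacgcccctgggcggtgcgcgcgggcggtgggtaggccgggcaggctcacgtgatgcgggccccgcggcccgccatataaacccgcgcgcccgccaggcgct
TMEM97, chr17:28318950-28319199, plus strand: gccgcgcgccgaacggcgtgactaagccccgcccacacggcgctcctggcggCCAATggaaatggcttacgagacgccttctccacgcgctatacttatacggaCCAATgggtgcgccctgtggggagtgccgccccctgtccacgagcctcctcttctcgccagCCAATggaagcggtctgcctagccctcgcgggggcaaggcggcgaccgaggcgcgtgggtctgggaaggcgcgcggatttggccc
MYLIP, chr6:16128836-16129085, plus strand: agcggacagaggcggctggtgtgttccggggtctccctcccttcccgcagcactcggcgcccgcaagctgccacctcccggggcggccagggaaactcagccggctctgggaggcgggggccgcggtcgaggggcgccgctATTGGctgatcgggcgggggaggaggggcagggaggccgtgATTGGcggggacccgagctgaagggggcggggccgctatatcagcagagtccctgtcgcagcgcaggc

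CCAAT was common in these promoters. Windows of 300 bases, from 250 before to 50 after a start, were available for 27 of the 30 genes, 38 windows in all; FDFT1, SQLE and ACAT2 were not among them. CCAAT on either strand was found in 23 of the 38 windows, 60.5%, against 34.6% of all 35116 windows and 35.0% of the 13330 windows of genes above the floor on all 4 arrays. GGGCGG, bound by SP1, was found in 84.2%, against 67.3% of the windows of genes above the floor. The relaxed sterol regulatory core CACNCCAC was found in 5 of the 38, which belong to IDI1, INSIG1, SC5D and SREBF2, or 13.2%, against 5.74%. The windows of SC5D overlap and hold the same match. By gene, the relaxed core was found for 4 of 27, or 14.8%, against 7.05% of all 27305 genes with a window. The exact core CACCCCAC, a special case of the relaxed one, was found in 1 window, of SREBF2, or 2.63%, against 2.56%. Among the stretches printed, TMEM97 held 3 CCAAT boxes, HMGCS1, IDI1, STARD4 and MYLIP 2 each, and INSIG1 held 1 with a relaxed sterol core before it. Base composition was not matched between these sets, and a match is a run of letters, not a bound site.

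On each treated array most of the 27 genes were above their untreated level, 22 with romidepsin, 23 with tamoxifen and 21 with both drugs. With romidepsin 11 rose and 1 fell, where 14.3% of all measured genes rose and 9.27% fell. With tamoxifen 10 rose and 0 fell, against 3.7% and 1.07% of all genes. With both drugs 12 rose and 1 fell, against 19.8% and 14.4%. The median log2 folds were 0.71 with romidepsin, 0.89 with tamoxifen and 0.87 with both drugs, and those of all measured genes were 0.06, 0.01 and 0.09. These 3 comparisons share the untreated array. The list was chosen with earlier results of these data known, so its difference from all genes is a description and not a test. Since the genes lay above the floor on all arrays, the shares among the 11058 genes of that kind may be set beside them: 12.1% rose and 10.4% fell with romidepsin, 3.64% rose and 0.904% fell with tamoxifen, and 18.2% rose and 16.7% fell with both drugs.

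**Figure D1:**
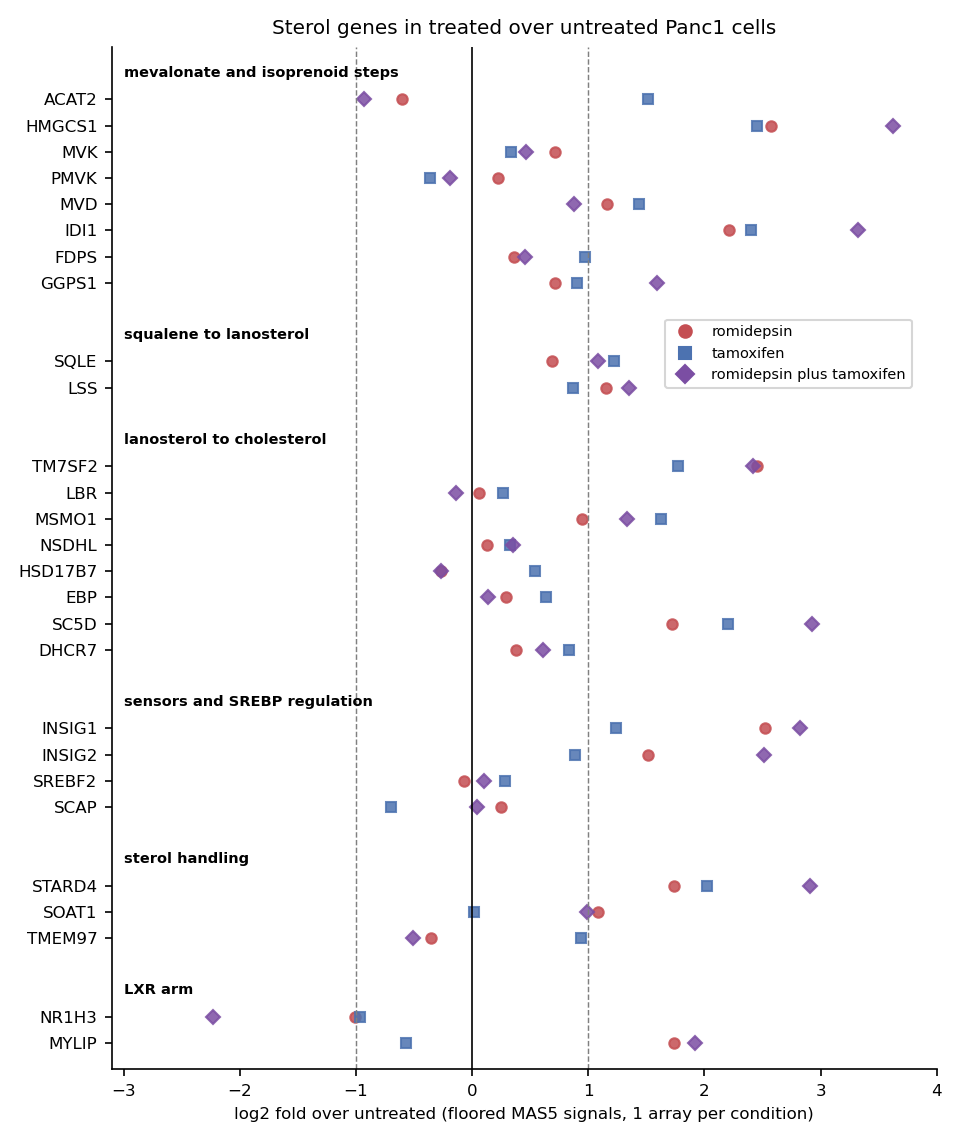
Log2 folds over untreated cells on the x axis for 27 sterol genes, grouped by role, with 1 array per condition. Circles stand for romidepsin, squares for tamoxifen and diamonds for both drugs, and dashed lines mark 2-fold. HMGCS1 and IDI1 lie furthest right with both drugs, at 3.62 and 3.32, NR1H3 furthest left at -2.23, and ACAT2 is right of 0 with tamoxifen only.

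In the mevalonate and isoprenoid stage, 3 of 8 genes rose with romidepsin, 4 with tamoxifen and 3 with both drugs. Among all measured genes, 14.3%, 3.7% and 19.8% rose, in the same order. HMGCS1, which makes the HMG-CoA from which mevalonate is formed, had signals of 4277 with romidepsin, 3931 with tamoxifen and 8822 with both drugs, against 717 in untreated cells. All 3 treated arrays were above the untreated one, by 5.97-fold, 5.48-fold and 12.3-fold, and the array of both drugs was the highest. IDI1, the isomerase that interconverts the isoprenoid building blocks, stood at 11136 with romidepsin, 12654 with tamoxifen and 23914 with both drugs, against 2397 in untreated cells, folds of 4.65, 5.28 and 9.98. Of 13051 genes measured for tamoxifen over untreated, HMGCS1 had the highest fold, and IDI1 ranked 3, SC5D 4 and STARD4 8.

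The other genes of this stage moved less, or in another order. ACAT2, the cytosolic thiolase that joins acetyl-CoA units at the entry of the pathway, had signals of 3135 with romidepsin, 13641 with tamoxifen and 2504 with both drugs, against 4771 in untreated cells. Tamoxifen alone thus stood 2.86-fold above untreated cells, whereas the arrays with romidepsin lay below untreated cells, by 1.52-fold alone and 1.91-fold with both drugs, each short of 2-fold. MVD, the decarboxylase that forms the isoprenoid unit, stood at 599 with romidepsin, 728 with tamoxifen and 491.5 with both drugs, against 268 in untreated cells. It rose 2.23-fold with romidepsin and 2.71-fold with tamoxifen, and was at 1.83-fold with both. GGPS1, which makes the prenyl donor geranylgeranyl diphosphate, reached 3313 with both drugs, against 1102 in untreated cells, a rise of 3.01-fold, with 1806 for romidepsin and 2059 for tamoxifen alone. FDPS, which makes farnesyl diphosphate, was at 14315 with tamoxifen against 7313 in untreated cells, 1.96-fold and just short of a call. The kinases MVK and PMVK passed 2-fold in none of the 3 comparisons, and their log2 folds lay between -0.36 and 0.72.

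Between squalene and lanosterol, SQLE and LSS were measured. SQLE, the epoxidase that adds oxygen to squalene, had 12389 with romidepsin, 17939 with tamoxifen and 16264 with both drugs, against 7695 in untreated cells. It rose 2.33-fold with tamoxifen and 2.11-fold with both drugs, and its romidepsin fold was 1.61. LSS, the cyclase that makes lanosterol, stood at 9125 with romidepsin, 7492 with tamoxifen and 10449.6 with both drugs, against 4095 in untreated cells. Its order was the reverse for the single drugs, a rise of 2.23-fold with romidepsin, a fold of 1.83 with tamoxifen, and a rise of 2.55-fold with both.

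From lanosterol to cholesterol, 2 of 8 genes rose with romidepsin, and 3 each with tamoxifen and with both drugs. The shares of all measured genes that rose were 14.3%, 3.7% and 19.8% with these treatments. TM7SF2, a sterol C14 reductase, had 3073 with romidepsin, 1916 with tamoxifen and 3008 with both drugs, against 562 in untreated cells. It rose 5.47-fold with romidepsin and 5.36-fold with both drugs, so the array of both drugs stood level with that of romidepsin alone, and 3.41-fold with tamoxifen. LBR, the lamin B receptor, carries the same reductase activity, and its log2 folds lay between -0.14 and 0.26. SC5D, the C5 desaturase, stood at 4684 with romidepsin, 6517 with tamoxifen and 10803 with both drugs, against 1417 in untreated cells. The array of both drugs was again the highest, and the rises were 3.31-fold, 4.60-fold and 7.62-fold. MSMO1, the C4 methyl oxidase, was highest with tamoxifen, at 19726, with 12343 for romidepsin and 16179.5 for both drugs, against 6404 in untreated cells. Its rises were 3.08-fold with tamoxifen and 2.53-fold with both drugs, and its romidepsin fold of 1.93 fell short.

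The remaining genes of this stage passed 2-fold in none of the comparisons with untreated cells. EBP, the sterol isomerase, was at 8473 with romidepsin, 10735 with tamoxifen and 7612 with both drugs, against 6915 in untreated cells, and DHCR7, the last reductase, at 7115, 9789 and 8361 with the same treatments, against 5486 in untreated cells. HSD17B7, a ketoreductase, was at 3121 with tamoxifen and at 1784 with romidepsin and 1782 with both drugs, against 2145 in untreated cells. Its only probe set is of the kind that can match other transcripts, so its values are uncertain. The probe set used for IDI1 and the other bright one of that gene are of the same kind. NSDHL, a decarboxylase, had log2 folds between 0.13 and 0.35. EBP, DHCR7 and HSD17B7 were each highest on the tamoxifen array.

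The regulators of SREBP2 split. INSIG1 had 20005 with romidepsin, 8239 with tamoxifen and 24732 with both drugs, against 3490.2 in untreated cells. It rose 5.73-fold with romidepsin and 7.09-fold with both drugs, and 2.36-fold with tamoxifen, so that the 2 arrays with romidepsin stood clearly above the others. INSIG2 stood at 927 with romidepsin, 599.97 with tamoxifen and 1849.5 with both drugs, against 324 in untreated cells, rises of 2.86-fold with romidepsin and 5.71-fold with both, and a fold of 1.85 with tamoxifen. SREBF2 itself was at 717, 916 and 808 with romidepsin, tamoxifen and both drugs, against 753 in untreated cells, with no fold above 1.22. SCAP was at 2308 with romidepsin, 1195 with tamoxifen and 2001 with both drugs, against 1940.3 in untreated cells, and its lowest array was that of tamoxifen, 1.62-fold below untreated cells.

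Of the genes of sterol handling, STARD4, a carrier that moves cholesterol between membranes, followed HMGCS1. It had 1851 with romidepsin, 2245 with tamoxifen and 4150.2 with both drugs, against 554 in untreated cells, rises of 3.34-fold, 4.05-fold and 7.50-fold. SOAT1, which esterifies cholesterol for storage, stood at 3147 with romidepsin and 1507 with tamoxifen, and at 2958 with both drugs, against 1488 in untreated cells. The arrays split by romidepsin, a rise of 2.11-fold alone and a fold of 1.99 with both, while the tamoxifen fold was 1.01. Of its further probe sets, 1 gave a romidepsin log2 fold of 1.10 and the other 0.14. TMEM97, the sigma-2 receptor, a sterol-regulated protein of the endoplasmic reticulum, showed another pattern, in which only the tamoxifen array stood apart, above the rest. It had 3847 with romidepsin, 9403 with tamoxifen and 3452 with both drugs, against 4923 in untreated cells. Its tamoxifen fold was 1.91, and 2 of its 3 further probe sets passed 2-fold there, with log2 folds of 1.07 and 1.04.

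The LXR genes went their own way. NR1H3 had 374 with romidepsin, 383 with tamoxifen and 159.8 with both drugs, against 749.9 in untreated cells. Each drug alone stood near a 2-fold difference, 2.01-fold lower with romidepsin, which counts as a fall, and 1.96-fold lower with tamoxifen, and with both drugs it fell 4.69-fold. MYLIP, an LXR target that encodes a ubiquitin ligase for lipoprotein receptors, had 1573 with romidepsin, 318 with tamoxifen and 1789 with both drugs, against 472 in untreated cells. It rose 3.33-fold with romidepsin and 3.79-fold with both drugs, and was 1.48-fold lower with tamoxifen. NR1H3 was the only one of the 27 genes with its highest signal in untreated cells.

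**Figure D2:**
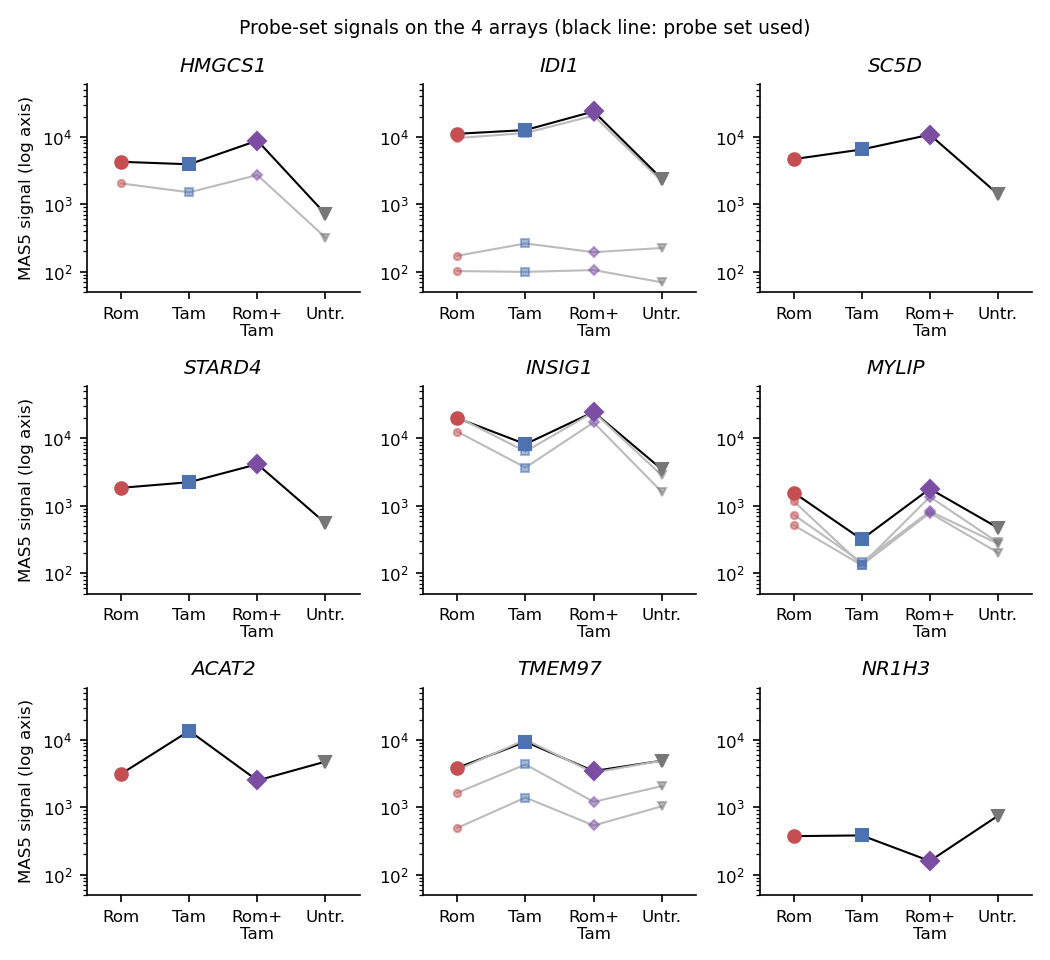
MAS5 signals on a log axis for 9 sterol genes on the arrays of romidepsin, tamoxifen, both drugs and untreated cells, 1 array each, with lines joining the values of 1 probe set and the probe set used in black. Only probe sets above the floor on all arrays are drawn. HMGCS1, IDI1, SC5D and STARD4 are highest with both drugs, ACAT2 and TMEM97 only with tamoxifen, and NR1H3 in untreated cells.

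Over all 27 genes, the highest signal was on the tamoxifen array for 11, on the array of both drugs for 10, on the romidepsin array for 5 and on the untreated array for 1. Among the 11058 genes above the floor on all arrays, the shares were 20.6%, 28.4%, 21.3% and 29.7% in that order. The genes highest with both drugs were HMGCS1, IDI1, GGPS1, LSS, NSDHL, SC5D, INSIG1, INSIG2, STARD4 and MYLIP. Those highest with tamoxifen alone were ACAT2, MVD, FDPS, SQLE, LBR, MSMO1, HSD17B7, EBP, DHCR7, SREBF2 and TMEM97. Some of these orders rest on small differences: TM7SF2 had 3008 with both drugs and 3073 with romidepsin, a log2 fold of -0.03, which is less than the median difference between probe sets.

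Tamoxifen was then compared with its absence in cells that had romidepsin, that is, both drugs over romidepsin. This comparison and that of tamoxifen over untreated have no array in common. Of the 27 genes, 4 rose and 1 fell, where 4.07% of all measured genes rose and 2.27% fell, and the median log2 fold was 0.17, against -0.03 for all genes. The 4 that rose were HMGCS1 at 2.06-fold, IDI1 at 2.15-fold, SC5D at 2.31-fold and STARD4 at 2.24-fold, and all 4 had also risen with tamoxifen alone. Of 4 further probe sets of these genes above the floor on all arrays, 4 had the same sign and 1, of IDI1, passed 2-fold. That of HMGCS1 gave a log2 fold of 0.41, and 2 dim ones of IDI1 gave 0.05 and 0.17. A rise in both comparisons was seen for 1.33% of 12363 genes measured in both, and a fall in both for 0.194%. NR1H3 was 2.34-fold lower. INSIG2 was at 1849.5 with both drugs and 927 with romidepsin, a fold just below 2. Of the 10 genes that had risen with tamoxifen alone, 7 had a positive log2 fold in the presence of romidepsin. The exceptions were ACAT2 with -0.32, MVD with -0.29 and TM7SF2 with -0.03.

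Romidepsin was likewise compared with its absence in tamoxifen-treated cells, that is, both drugs over tamoxifen. Here 4 genes rose and 3 fell, where 14.8% of all genes rose and 11.8% fell, and the median log2 fold was 0.13, against 0.05 for all genes. The log2 fold was positive for 15 of the 27 genes and negative for 12. MYLIP rose 5.62-fold, to 1789 with both drugs against 318 with tamoxifen, INSIG2 rose 3.08-fold, HMGCS1 rose 2.24-fold, and INSIG1 rose to 24732 with both drugs against 8239 with tamoxifen. ACAT2 fell 5.45-fold, to 2504 with both drugs against 13641 with tamoxifen, TMEM97 2.72-fold and NR1H3 2.40-fold. HMGCS1, INSIG1, INSIG2 and MYLIP rose, and NR1H3 fell, with romidepsin whether or not tamoxifen was present. These are 14.8% and 3.7% of the 27 genes, where 11.4% of 13098 genes rose and 7.7% fell in both comparisons. The counts in both comparisons, and those of both drugs over tamoxifen, were thus not far from those of all genes. MVD had log2 folds of -0.57 in the presence of tamoxifen and 1.16 in its absence.

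**Figure D3:**
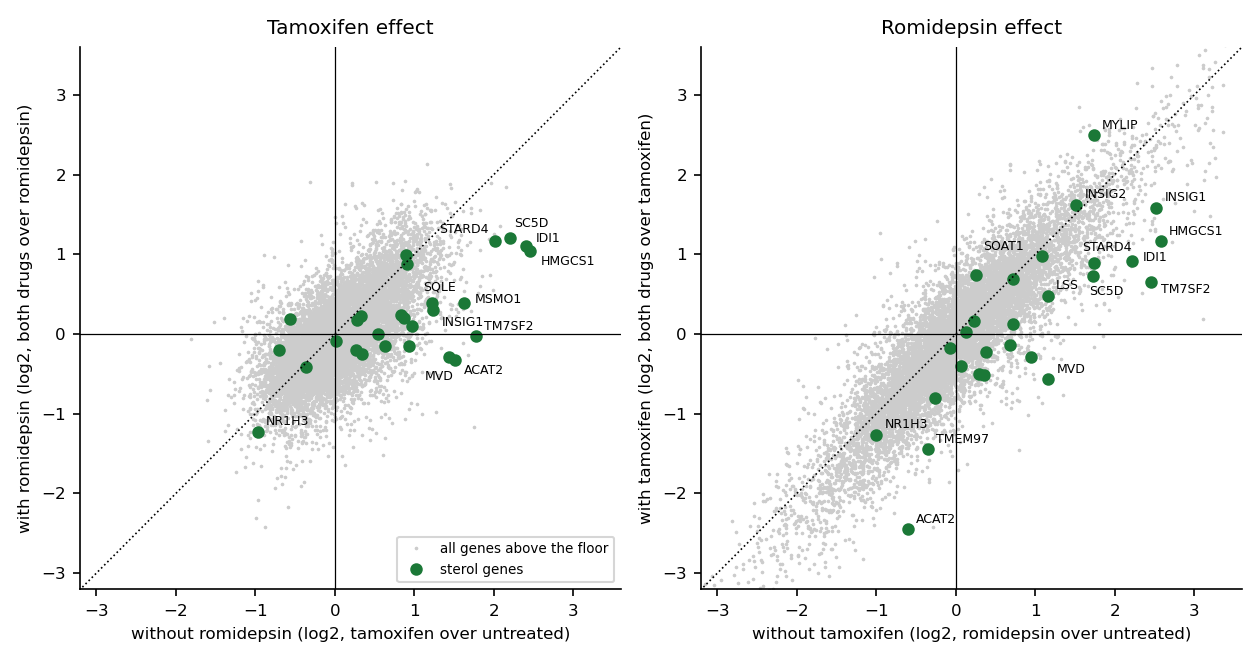
Log2 fold of a drug in the absence of the other drug (x axis) against its fold in the presence of the other drug (y axis), for tamoxifen on the left and romidepsin on the right, 1 array per condition. Green points are the 27 sterol genes, grey points all genes above the floor on all arrays (a few lie outside the axes), and the dotted line marks equal folds. A gene's vertical distance from the dotted line is the same number in both panels by construction, so the 24 green points below the line and the 3 above it, MYLIP among them, are the same genes in each. ACAT2 lies at 1.52 and -0.32 on the left.

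The fold of both drugs was set against the product of the 2 single folds. For 24 of the 27 genes the combination lay below that product, which was so for 55.4% of the 11058 genes above the floor. It was at least 2-fold below for 7 genes, where 2.23% of all genes were that far below, and at least 2-fold above for 0, where 0.886% of all genes were. For HMGCS1 the product was 32.7 and the measured fold 12.3, and for IDI1 they were 24.5 and 9.98. TM7SF2 had a product of 18.7 and a measured fold of 5.36, MVD 6.06 and 1.83, and MSMO1 5.94 and 2.53. ACAT2 had a product of 1.88 and a measured fold of 0.525, and TMEM97 1.49 and 0.701. GGPS1 and INSIG2 stood close to their products, 3.06 against a measured 3.01 and 5.31 against 5.71. MYLIP lay furthest above its product, 2.25 against a measured 3.79. These values rest on all 4 arrays, so an error on any one enters each of them.

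The further probe sets of the same genes read the same RNA and are not replicates, but they show where a value rests on a single probe set. Of the 27 genes, 15 had more than 1 probe set. The counts that follow leave out 5 probe sets below the floor on at least 1 array. Of 9 further probe sets of genes that rose with tamoxifen, 9 had the same sign and 7 also passed 2-fold, and of 13 beside a romidepsin call 12 had the same sign and 10 passed. The tamoxifen ones short of 2-fold belonged to IDI1, and the romidepsin ones to IDI1 and SOAT1. The 2 dim probe sets of IDI1 stood at 69.7 to 262.7 on the 4 arrays. They gave log2 folds of 0.22 and 0.51 with tamoxifen, and of -0.38 and 0.55 with romidepsin. That of -0.38 was the 1 of opposite sign. Among those left out, the further probe set of SC5D gave log2 folds of 0.24 with romidepsin and 0.95 with tamoxifen, and 1 of MYLIP gave 0.63 with romidepsin, all short of 2-fold and bounded by the floor. Of 6 MYLIP probe sets, 4 lay above the floor on all arrays, and all 4 were higher with romidepsin and lower with tamoxifen than in untreated cells. The 3 of INSIG1 gave log2 folds of 2.52 to 2.97 with romidepsin. SREBF2 had probe sets of opposite sign, with tamoxifen log2 folds of -0.49, 0.28 and 0.73. ACAT2, MVD, TM7SF2, MSMO1, STARD4, INSIG2 and NR1H3 had a single probe set each, so their folds have no such check.

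**Figure D4:**
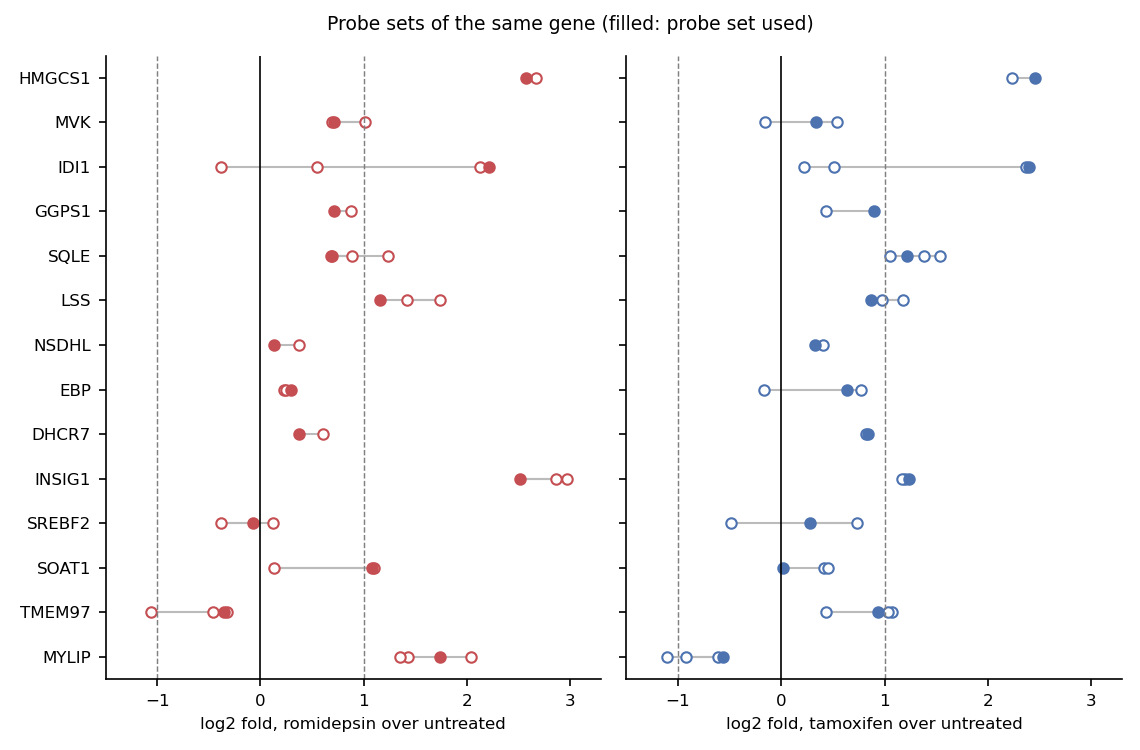
Log2 folds of every probe set above the floor on all arrays, for the 14 sterol genes with more than 1 such probe set, with romidepsin over untreated on the left and tamoxifen over untreated on the right, 1 array per condition. Filled points are the probe sets used, and dashed lines mark 2-fold. The points of HMGCS1 and DHCR7 lie close together in both panels, those of IDI1 fall into a high and a low pair, and 1 of the 3 of SOAT1 stands apart with romidepsin, at 0.14.

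Some of these calls depend on the settings. With romidepsin, 5 of 12 calls held under every alternative, those of HMGCS1, TM7SF2, INSIG1, INSIG2 and STARD4. Those of MVD, LSS and SOAT1 ended with arrays centred on their medians, that of NR1H3 with the higher floor, and those of IDI1, SC5D and MYLIP when only probe sets without a suffix for shared matches were used, which are dim for these genes. With tamoxifen 7 of 10 calls held under every alternative, and those of IDI1, SC5D and MVD did not. Among the genes whose calls held, TM7SF2 and ACAT2 have no probe set without such a suffix, so that alternative did not measure them. Scaling to the spike-in controls raised the tamoxifen count to 16, adding FDPS, GGPS1, LSS, DHCR7, INSIG2 and TMEM97. The share of all genes that rose with tamoxifen went from 3.7% to 11.5% under that scaling. Centring on medians left the count at 10, where 2.21% of all genes rose. In tamoxifen added to romidepsin, only the rise of STARD4 held under every alternative.

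Other sterol genes, 43 in all, were counted beside the 27, and 39 had a probe set. They include the proteases that activate SREBP2, carriers, exporters, esterases and enzymes that use isoprenoids. With romidepsin 8 of 37 measured rose and 1 fell, with tamoxifen 2 of 36 rose and 2 fell, and with both drugs 9 of 37 rose and 2 fell. Among all measured genes, 14.3% rose and 9.27% fell with romidepsin, 3.7% and 1.07% with tamoxifen, and 19.8% and 14.4% with both drugs, so these counts of rises were not far from those of all genes. Their median log2 folds were 0.40, 0.12 and 0.45. The only fall with romidepsin was that of ERLIN1, and ERLIN1 and COQ2 fell with both drugs. With tamoxifen GRAMD1C and ERG28 rose, and ABCG1 and ABCA1 fell. With tamoxifen added to romidepsin 0 of 38 rose and 1, CYP27A1, fell, where 4.07% and 2.27% of all genes did. CYP27A1 was above the floor on 1 array only, that of romidepsin, at 147, so its fold is bounded by the floor. With romidepsin added to tamoxifen 8 of 37 rose and 2, ERLIN1 and LRP8, fell, where 14.8% and 11.8% of all genes did. ERLIN1, COQ2, ERG28, CYP27A1 and LRP8 were named after their values were seen. The 6 with the largest folds in any comparison are described. ABCG1, an LXR-regulated sterol exporter, had 1369.9 with romidepsin, 48.3 with tamoxifen and 948 with both drugs, against 208 in untreated cells. Its tamoxifen signal was below the floor, so it was at least 3.13-fold lower there and 6.60-fold higher with romidepsin. ABCA1, another LXR-regulated exporter, stood at 261 with romidepsin, 37.0 with tamoxifen and 288 with both drugs, against 155 in untreated cells, at least 2.33-fold lower with tamoxifen. MYLIP, ABCG1 and ABCA1 thus had their lowest signal with tamoxifen and higher signals on both arrays with romidepsin. SCAP, STARD5 and POR had the same order, so it was not particular to MYLIP, ABCG1 and ABCA1. It was also that of OSBP, STARD3, ERLIN2, GRAMD1A and SREBF1, some by small margins, named after their values were seen. GRAMD1C, of a family of cholesterol carriers between membranes, had 365 with romidepsin, 285 with tamoxifen and 662 with both drugs, against 104 in untreated cells, rises of 3.52-fold, 2.76-fold and 6.39-fold. STARD5, a sterol carrier, rose 2.83-fold with romidepsin and 2.76-fold with both drugs, and had 211 with tamoxifen, against 266 in untreated cells. POR, the reductase that feeds electrons to cytochrome P450 enzymes and SQLE, rose 2.84-fold and 2.61-fold on the same arrays, and VLDLR, a lipoprotein receptor, 2.05-fold and 2.72-fold. The tamoxifen folds of POR and VLDLR were short of 2-fold, with log2 folds of -0.10 and 0.25.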

How the data were processed

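RNA of 4 samples was labelled with a 3′ IVT kit and hybridised to 1 array each, per the labels' protocols. The deposited values are intensities, MAS5 signals on a linear scale per the submitters' processing notes. No version is stated. MAS5 scales each array on its own, and the trimmed means of the 4 arrays, with the ends left out, were 500.1 each. Columns of other samples numbered 0. The members and lists were chosen with earlier results of these data known.

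Of 54675 probe sets, 62 were controls and 41097 named 1 gene in the platform annotation. Of a gene's probe sets, the one brightest on average over the 4 arrays (mean of log2 signals) was used. Comparisons took in genes above the floor of 66.4 on at least 1 of the 2 arrays. A difference of at least 2-fold was called. Ratios were not tested, as each group had 1 array. All members were described, and of the other sterol genes the 6 with the largest log2 fold. Alternatives were 2 other floors, log2(signal + 50), 3 scalings and 2 ways of choosing probe sets. Promoter windows came from RefSeq tables for GRCh38.p14. The calling step was tested on simulated data with effects well above 2-fold in bright genes, which does not bear on dim genes or folds near 2. Python 3.11.15, numpy 2.4.6, pandas 2.3.3 and matplotlib 3.10.9 were used.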

Additional observations from a re-analysis of the deposited data

Results flagged for a closer look

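For 3 genes a drug's effect had opposite signs with and without the other drug and was at least 2-fold in 1 of the cases; each effect rests on 1 array against 1, and the difference was not tested. The tamoxifen log2 fold of ACAT2 was -0.32 with romidepsin present and 1.52 without it, that of MVD -0.29 and 1.44, and that of TM7SF2 -0.03 and 1.77. The romidepsin log2 fold of MVD was -0.57 with tamoxifen present and 1.16 without it. The value of TM7SF2 near 0 has no reliable sign, and each of the 3 genes is read by 1 probe set.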

How the results depend on the processing

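Alternatives were run for the counts of rises and falls and the median of the 27 genes in 5 comparisons, and 104 of 120 values stayed within 1.5 times the count or, for a median, within the median difference between probe sets over all genes in that comparison, 0.23 to 0.32 on the log2 scale. The median log2 fold with both drugs over untreated, 0.87 as reported, stayed within that tolerance but lay between 0.58 (centred on medians) and 1.16 (scaled to the spike-ins). With probe sets free of a suffix for shared matches, which left 20 or 21 genes, 6 genes rose with romidepsin, 6 with tamoxifen and 2 with tamoxifen added to romidepsin. Among all genes so measured, 14.9%, 3.92% and 4.53% rose in these comparisons. Scaled to the spike-in controls, 16 rose with tamoxifen (median log2 fold 1.25), where 11.5% of all genes did so, against 3.7% as deposited. With tamoxifen added to romidepsin and the same scaling, the median was 0.48 and 0 fell, where 0.648% of all genes fell. With arrays centred on their medians, 1 fell with tamoxifen and 2 with both drugs over untreated, where 2.39% and 20.9% of all genes fell. So centred, 2 rose with tamoxifen added to romidepsin, where 2.91% of all genes rose. Quantile normalization also gave 1 fall with tamoxifen, where 1.55% of all genes fell. The floor at the 75th percentile gave 0 falls with romidepsin, with both drugs over untreated and with tamoxifen added to romidepsin, since a dim gene cannot fall 2-fold above a higher floor. Of all genes, 9.46%, 15.3% and 1.52% fell in these comparisons at that floor. With log2(signal + 50), 0 fell with romidepsin, where 5.78% of all genes fell. With the median over probe sets, 2 rose with tamoxifen added to romidepsin, where 3.23% of all genes rose. For single genes, 28 of 47 calls held under every alternative that measured the gene and all 47 kept their sign; 15 of 88 values short of 2-fold passed it under at least 1 alternative. Of all calls with tamoxifen over untreated, 77.5% were rises as deposited, 48.0% when centred, 63.2% after quantile normalization and 98.3% when scaled to the spike-ins. Over the deposited scaling, the centred one gave 47.4% in place of 60.7% with romidepsin, 41.2% (72.8% with spike-ins) in place of 57.9% with both drugs, and 46.4% (93.7% with spike-ins) in place of 64.2% with tamoxifen added to romidepsin. No paired analysis was possible because each condition had 1 array. No array could be left out for the same reason, and variation between cultures was not measured.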

Other observations

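Genes of fatty acid synthesis, many of which respond to the related factor SREBP1, were set beside the sterol genes, and 9 of 10 listed had a probe set. With romidepsin 3 rose and 1 fell, with tamoxifen 2 rose and 0 fell, and with both drugs 2 rose and 1 fell over untreated cells. Of all measured genes, 14.3% rose and 9.27% fell with romidepsin, 3.7% and 1.07% with tamoxifen, and 19.8% and 14.4% with both drugs. Those that rose or fell in any of these comparisons, ACSS2, ELOVL6, FADS2, FASN and LPIN1, are described. ACSS2, which makes acetyl-CoA from acetate, had 1167 with romidepsin, 1757 with tamoxifen and 968 with both drugs, against 548 in untreated cells. ELOVL6, a fatty acid elongase, stood at 700 with romidepsin, 3937 with tamoxifen and 1229 with both drugs, against 1291 in untreated cells, and FADS2, a desaturase, at 415 with romidepsin, 1606 with tamoxifen and 355 with both drugs, against 927 in untreated cells. These 3 were highest with tamoxifen alone, as ACAT2 and TMEM97 were. ACSS2 was above its untreated level on every treated array, whereas ACAT2 and TMEM97 were below theirs on the arrays with romidepsin. FASN, the fatty acid synthase, was highest on the arrays with romidepsin instead, 12911 alone and 13685 with both drugs, with 5716 for tamoxifen, against 5118 in untreated cells. LPIN1 rose 2.37-fold with romidepsin and 3.42-fold with both drugs, and its tamoxifen fold was 1.91. SREBF1, which encodes SREBP1 and is an LXR target, had 3625 with romidepsin, 1136 with tamoxifen and 2628 with both drugs, against 1928 in untreated cells. Its lowest array was that of tamoxifen, as for MYLIP, ABCG1 and ABCA1, and also for SCAP, STARD5, POR, OSBP and others of the sterol genes.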
